A study of Mus musculus with 12 samples.

Results

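Shc adaptors and the proteins they recruit are described here through 10 genes of the deposited expression table: the adaptors Shc1, Shc2, Shc3 and Shc4, the Shc1-binding protein gene Shcbp1, the adaptor Grb2, the exchange factors Sos1 and Sos2, and the docking proteins Gab1 and Gab2. They were taken by gene name from a table of 23406 genes, and all 10 passed the filter on low values that left 13961 genes for testing. The study profiled total RNA of passage 2 mammospheres, floating spheres grown in culture from mammary cells, from C57BL/6J mice. The 4 groups held 3 libraries each: wild-type (WT) mice and p66Shc knock-out mice (p66-/- C57BL/6J, here KO), each aged either 2 months, called young, or 12 months, called aged. The series describes 3 mice per group but does not tie a library to a mouse, so p-values measure the spread between these libraries. The labels do not describe the knock-out allele, and every group had been cultured and passaged.

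Shc proteins are adaptors: they bind phosphorylated tyrosines on activated growth factor receptors and are then phosphorylated themselves. Grb2 docks on phosphorylated Shc and brings Sos, the factor that loads Ras with GTP and so starts the Raf-MEK-ERK kinase cascade, while Gab proteins are larger platforms that Grb2 also carries to receptors and that recruit the phosphatase Shp2 and PI3-kinase. Shc1 makes 3 proteins, p66, p52 and p46. The p52 and p46 forms are the classical activators of Ras, whereas p66, which carries an extra amino-terminal region, is known for its part in oxidative stress responses and for the phenotype of mice that lack it.

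The Shc1 sequences are shown because they define what the knock-out and the gene-level count can and cannot separate. Shc1 lay on chromosome 3, from 89418551 to 89430029 on the plus strand of mm10, and the GENCODE vM21 annotation of the same build listed 10 transcripts there, of which 8 were protein-coding and 4 carried a stop codon. Transcript Shc1-202 started at 89421628 and encoded 579 codons from a start codon at 89421851, the p66 form. Transcripts Shc1-201 and Shc1-210 started upstream, at 89418443 and 89418551, and encoded the 469 codons of p52 from 89422181, and Shc1-203 encoded the 424 codons of p46 from 89422316. The 330 bases between the p66 and p52 start codons, or 110 codons, were the coding stretch that p66 alone holds, 12.6% of the 2617 bases of Shc1-202. The first 300 bases of that stretch, in GRCm38 at chr3:89421851-89422150, are printed with the p66 start codon in capitals.
p66-only coding stretch of Shc1: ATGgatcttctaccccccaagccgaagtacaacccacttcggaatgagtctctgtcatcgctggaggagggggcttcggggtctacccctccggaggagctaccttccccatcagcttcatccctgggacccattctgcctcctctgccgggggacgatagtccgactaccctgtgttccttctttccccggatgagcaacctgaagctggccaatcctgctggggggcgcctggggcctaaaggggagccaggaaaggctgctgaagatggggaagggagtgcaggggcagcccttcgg
RefSeq listed separate promoters for the upstream and the p66 transcript starts, each printed on the plus strand of GRCm38.p6 from 250 bases before to 50 bases after the start. The upstream promoter spanned chr3:89418301-89418600 and the p66 promoter chr3:89421371-89421670. Capitals mark the GC box, the motif GGGCGG on either strand (CCGCCC on the printed one), searched on both strands.
Shc1 upstream promoter: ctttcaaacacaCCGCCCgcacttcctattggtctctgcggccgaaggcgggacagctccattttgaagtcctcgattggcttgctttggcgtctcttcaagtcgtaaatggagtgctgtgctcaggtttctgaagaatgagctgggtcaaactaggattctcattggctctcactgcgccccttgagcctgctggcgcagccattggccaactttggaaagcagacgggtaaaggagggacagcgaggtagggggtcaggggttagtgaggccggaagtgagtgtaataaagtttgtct
Shc1 p66 promoter: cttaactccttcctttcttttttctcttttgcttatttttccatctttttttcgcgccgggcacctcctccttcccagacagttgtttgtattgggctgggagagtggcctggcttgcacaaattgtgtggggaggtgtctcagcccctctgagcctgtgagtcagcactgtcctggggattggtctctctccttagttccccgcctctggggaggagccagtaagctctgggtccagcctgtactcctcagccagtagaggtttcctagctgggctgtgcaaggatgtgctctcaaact
The upstream promoter held 1 GC box and 13 CpG dinucleotides, against 0 and 4 in the p66 promoter, at a GC content of 53.7% and 53.3%. Over all 32851 mouse promoters of this length, 35.7% held a GC box, and the median promoter had 7 CpG and 52.7% GC. A match is a description of letters in a window, not a measured binding site. The other genes lay elsewhere in mm10. Of the adaptors, Shc2 lay on chromosome 10 (79637918 down to 79617938, minus strand), Shc3 on chromosome 13 (51567084 to 51431042, minus), Shc4 on chromosome 2 (125724148 to 125627447, minus) and Grb2 on chromosome 11 (115708597 to 115644144, minus). Sos1 lay on chromosome 17 (80480453 to 80393752, minus), Sos2 on chromosome 12 (69681852 to 69583761, minus), Gab1 on chromosome 8 (80880479 to 80764434, minus), Gab2 on chromosome 7 (97081751 to 97308951, plus) and Shcbp1 on chromosome 8 (4779534 to 4735980, minus). The deposited count of Shc1 summed all isoforms, so the p66 transcript could not be read apart from p52 and p46.

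Depth was high in all libraries: 31845169 to 109079737 reads fell in genes, the most in aged KO replicate 3, and 17108 to 18025 genes had at least 1 read. Libraries of 1 group correlated at 0.991 or above across genes. Values are deposited CPM, reads relative to the library size after the authors' TMM scaling, where the limit that a count of 0 allows (3 reads) was 0.0290 to 0.0859 CPM, counting error only. The mammosphere label was set against cell type markers: the summed CPM of 9 luminal epithelial genes was 311 to 388 in young WT, 3816 to 3955 in aged WT, 439.9 to 515 in young KO and 465 to 488 in aged KO, and none of the 9 was at 0 in any group. The summed CPM of 7 fibroblast genes in the same order was 10201 to 11068, 6617 to 7021, 9689 to 10718 and 8468 to 9609. Its genes parted with age in KO. The means of Dcn (2525 to 4137), Pdgfra (525 to 951) and Thy1 (57.2 to 133) rose and were highest in aged KO. Those of Col1a1 (197 to 98.0), Col1a2 (1392 to 853), Col3a1 (5045 to 2481) and Lum (481 to 347) fell. The summed CPM of 8 basal or myoepithelial genes in that order of groups was 51.2 to 62.2, 219 to 229.8, 64.4 to 66.7 and 79.4 to 82.2. The aged WT libraries therefore stood apart in epithelial markers, whose part in the results was not tested, and in bulk RNA fewer cells of a type and less RNA per cell cannot be told apart.

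Between 2 and 12 months the members moved in both directions, and the age response differed by genotype for Shc2, Sos1 and Gab2. Differences are log2 fold changes with standard errors from limma on log2(CPM + 0.5), which understates the changes of low genes, and a gene was called at an adjusted p under 0.05 over all 13961 genes. With age in WT, 2 of 10 members rose and 6 fell, where 58.0% of all genes were called (22.3% higher, 35.6% lower). With age in KO, 4 rose and 4 fell, where 67.0% of all genes were called (32.9% higher, 34.2% lower). At 2 months 1 member was higher and 1 lower in KO than in WT, where 16.1% of all genes were called (1.86% higher, 14.2% lower). At 12 months 4 were higher and 3 lower in KO, where 70.2% of all genes were called (31.3% higher, 38.9% lower). The age response was called as different between genotypes for 3 members, all 3 with a positive difference, where 57.7% of all genes were called (31.4% positive, 26.2% negative). The median log2 change of the members in these comparisons was -0.45, -0.02, -0.17, -0.06 and 0.19, beside -0.08, -0.02, -0.09, -0.07 and 0.02 for all genes. The libraries of the compared groups did not overlap in 9 members with age in WT, 7 with age in KO, 6 between genotypes at 2 months and 7 at 12 months, where 62.3%, 72.9%, 32.1% and 73.9% of all genes did not. The split of all called genes by direction depended on the scaling: at 2 months 259 genes were higher and 1986 lower, against 426 and 1032 with TMM over all 12 libraries, and with age in WT 3120 rose and 4971 fell, against 3901 and 3769 with edgeR on recovered reads. That TMM scaling added 0.09 to each log2 difference between genotypes at 2 months and 0.06 to each age difference in WT. With it, the libraries of Grb2, Gab1 and Gab2 overlapped between genotypes at 2 months. So did those of Grb2 with age in WT and of Sos2 between genotypes at 12 months, while those of Shc4 with age in KO no longer did. The share of all genes without overlap was not computed with that scaling. The comparisons share groups of libraries (young WT served both age in WT and genotype at 2 months, for example), so their counts are not independent of each other.

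**Figure D1:**
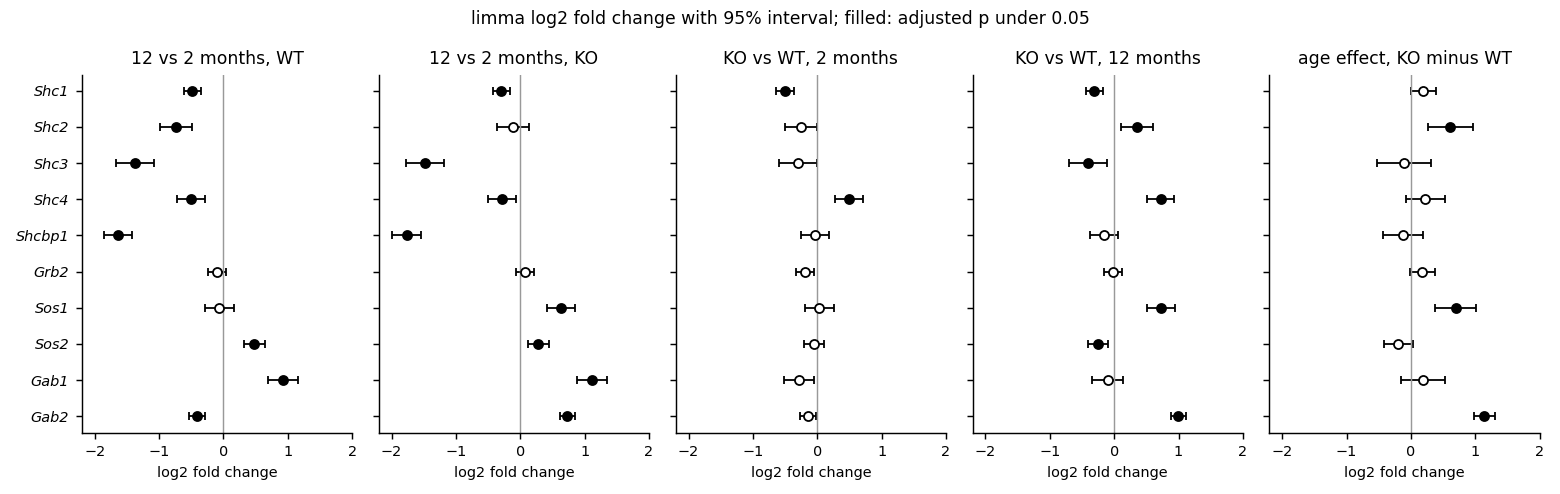
Each panel plots the limma log2 fold change (x axis) of each of the 10 genes (y axis) in 1 comparison, and the last panel the difference of the age effects, KO minus WT. Bars are 95% intervals and filled points passed an adjusted p under 0.05. Shcbp1 and Shc3 lie farthest left with age in both genotypes, and Gab2 lies on opposite sides of 0 with age in WT (-0.41) and KO (0.73).

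Shc1, the targeted gene, was lower in KO than in WT at both ages but stayed the most abundant member per length in every group. Its CPM was 266, 311 and 309.7 in the young WT libraries and 208, 209 and 208 in the young KO libraries, then 219.6, 209 and 203 in aged WT and 170.0, 162 and 178 in aged KO. The KO libraries lay below the WT libraries of the same age without overlap, and the aged WT and young KO libraries overlapped. In young libraries Shc1 was 1.41-fold lower in KO (log2 change -0.50 ± 0.06, adjusted p = 0.000133), and in aged libraries 1.24-fold lower (-0.31 ± 0.06, adjusted p = 0.000593). The log2 change with age was -0.49 ± 0.06 in WT (adjusted p = 1.56e-05) and -0.29 ± 0.06 in KO (adjusted p = 0.000947), a fall in each. The difference between these age effects was 0.19 ± 0.09 (adjusted p = 0.0778, 95% interval 0.00 to 0.38) and did not pass, but it passed without young WT replicate 1, the lowest of its group (0.26, adjusted p = 0.00613, range over alternatives 0.00613 to 0.297). Because the count sums all isoforms and the labels do not describe the allele, it does not check the KO labels.

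**Figure D2:**
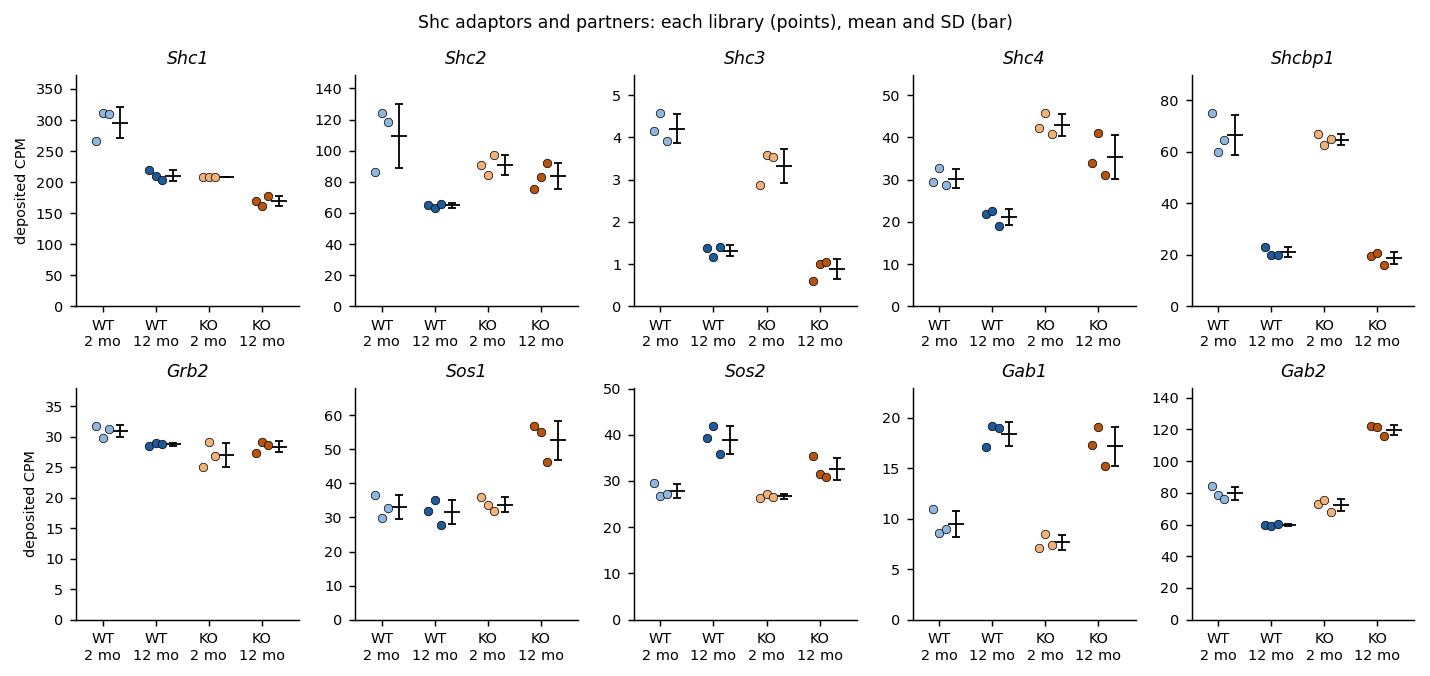
Points are the deposited CPM (y axis, from 0) of each gene in each of the 12 libraries, by group (x axis), and the mark beside them gives the group mean with its SD (n = 3). In Shc1 all KO points lie below the WT points of their age, in Shcbp1 and Shc3 all aged points lie below all young points, and in Gab2 and Sos1 the aged KO points lie above those of every other group.

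Shc4 (also called ShcD), an Shc protein known from neural tissue, muscle and melanoma, was the member that was higher in KO at both ages. Its CPM was 29.4, 32.7 and 28.6 in young WT, 21.8, 22.6 and 19.1 in aged WT, 42.2, 45.8 and 40.8 in young KO, and 34.0, 41.1 and 31.0 in aged KO. All 3 KO libraries exceeded all 3 WT libraries at each age, while in KO the groups of 2 ages overlapped. The KO excess of Shc4 was 1.41-fold in young libraries (0.50 ± 0.10, adjusted p = 0.00417) and 1.65-fold in aged ones (0.72 ± 0.10, adjusted p = 2.41e-05). It was the single member called higher at 2 months, when 1.86% of all genes were. Its age change was -0.51 ± 0.10 in WT (adjusted p = 0.000647) and -0.28 ± 0.10 in KO (adjusted p = 0.0220). The KO age call was lost without young KO replicate 2 (-0.24, adjusted p = 0.0854), aged KO replicate 1 (-0.26, adjusted p = 0.0652) or aged KO replicate 3 (-0.20, adjusted p = 0.1005), over a range of alternatives from 0.00148 to 0.1005. Eid1, a gene on the opposite strand inside the Shc4 locus, was at 169.7, 74.9, 158 and 91.6 CPM in young WT, aged WT, young KO and aged KO. The strand setting of the counting is not given in the sources used here, and without it reads of the pair cannot be told apart. Eid1 moved in the direction of Shc4 with age, falling in WT (-1.19 ± 0.09, adjusted p = 1.15e-07) and in KO (-0.78 ± 0.09, adjusted p = 6.64e-06), and was also higher in KO in aged libraries (0.30 ± 0.09, adjusted p = 0.0105). In young libraries its genotype difference was -0.11 ± 0.09 (adjusted p = 0.511), where Shc4 was higher in KO. The part of Eid1 reads in the Shc4 values was not tested. The summed CPM of 5 melanocyte markers was 129 to 134, 72.7 to 86.4, 126 to 132 and 191 to 207 in the same order of groups, but Mitf, a transcription factor, made up nearly all of it (127, 76.5, 125 and 191 CPM). The melanocyte enzyme gene Tyr was at 0.346, 0.119, 0.182 and 0.00833 CPM, and Dct was at 0 in the first 3 groups and at 0.0177 in aged KO. Pmel was at 0.788, 0.615, 0.724 and 1.06 CPM. Mlana was at 2.90, 4.57, 3.40 and 6.36 CPM, with KO means above WT means at both ages and aged means above young means. The part of melanocytes in the Shc4 values was not tested.

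Shc2 (Sck), an adaptor known mainly from the nervous system, fell with age in WT, and its age response differed by genotype. Its CPM was 86.0, 124 and 118 in young WT, 65.3, 63.3 and 65.97 in aged WT, 91.0, 84.3 and 97.2 in young KO and 75.4, 83.4 and 92.3 in aged KO. The aged WT libraries were the lowest 3 of the 12, and the KO libraries of 2 ages overlapped. Shc2 fell 1.66-fold with age in WT (-0.73 ± 0.12, adjusted p = 0.000106), the KO change was -0.12 ± 0.12 (adjusted p = 0.374, 95% interval -0.37 to 0.13), and the difference of the age effects was 0.61 ± 0.16 (adjusted p = 0.00595). At 12 months Shc2 was higher in KO by 0.36 ± 0.12 (adjusted p = 0.0133), a call lost without aged KO replicate 3, the highest of its group (0.29, adjusted p = 0.0551, range over alternatives 0.000437 to 0.0551). At 2 months the difference was -0.25 ± 0.12 (adjusted p = 0.171). It passed without young WT replicate 1, which lay below the other libraries of its group (-0.42, adjusted p = 0.00273, range 0.00273 to 0.476).

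Shc3 (Rai), the Shc adaptor of neurons, was the least abundant member in every group, with 24 to 223 reads per library. Its CPM was 4.14, 4.57 and 3.91 in young WT, 1.38, 1.18 and 1.40 in aged WT, 2.87, 3.58 and 3.55 in young KO, and 0.612, 0.992 and 1.04 in aged KO. Every aged library lay below every young library. Shc3 fell 2.59-fold with age in WT (-1.37 ± 0.14, adjusted p = 1.29e-06) and 2.79-fold in KO (-1.48 ± 0.14, adjusted p = 5.73e-07), and these effects differed by -0.11 ± 0.19 (adjusted p = 0.647). At 12 months it was lower in KO (log2 change -0.41 ± 0.14, adjusted p = 0.0160). That call was lost without aged WT replicate 3 (-0.38, adjusted p = 0.0504) or aged KO replicate 1 (-0.26, adjusted p = 0.0842), over a range of alternatives from 0.00912 to 0.0842. At 2 months the difference was -0.30 ± 0.14 (adjusted p = 0.165). Of 5 neuron markers, Rbfox3 was at 0 in all young libraries and 3 were below 0.5 CPM in each group. The summed CPM of the 5 was 14.8 to 23.0 in young WT, 12.3 to 13.8 in aged WT, 17.3 to 21.5 in young KO and 12.8 to 14.8 in aged KO. Most of it came from the tubulin gene Tubb3 (17.1, 12.4, 18.2 and 11.2). Snap25 was at 2.07, 0.566, 0.789 and 2.26 CPM in the same order, lower in aged than in young WT but higher in aged than in young KO. The part of neurons in the Shc3 values was not tested.

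Among the reads of the 4 Shc genes, Shc1 took most in every library and Shc4 took a larger part in KO. The Shc1 share was 67.4% ± 1.60 (SD, n = 3) in young WT, 70.7% ± 0.581 in aged WT, 60.3% ± 0.739 in young KO and 58.6% ± 2.16 in aged KO. The lowest WT library stood at 65.8% (95% Wilson interval 65.2 to 66.4, counting error only) and the highest KO library at 61.0% (60.2 to 61.7), so the genotypes did not overlap. The Shc4 share was 6.92% ± 0.697, 7.10% ± 0.509, 12.4% ± 0.857 and 12.2% ± 1.99 in the same order of groups. Shc2 took 24.7%, 21.8%, 26.3% and 28.8%, and Shc3 0.964%, 0.444%, 0.965% and 0.303%. A share within a library does not depend on how that library was scaled, and it falls for 1 gene when another rises.

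**Figure D3:**
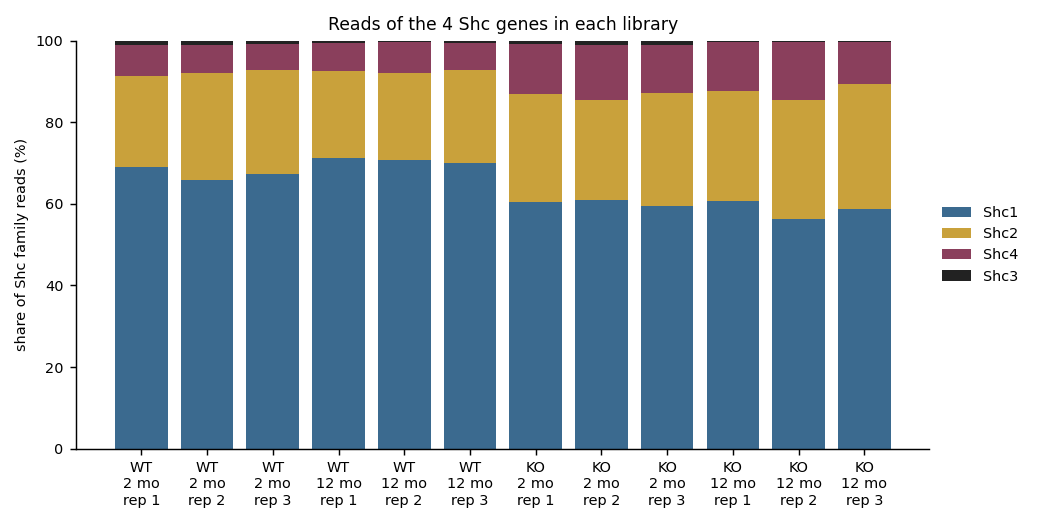
Stacked bars give the share of reads (y axis, percent) that Shc1, Shc2, Shc4 and Shc3 took of the reads of all 4 genes in each of the 12 libraries (x axis). The Shc1 part ends between 65.8% and 71.3% in the 6 WT libraries and between 56.4% and 61.0% in the 6 KO libraries.

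Shcbp1, which binds the SH2 domain of Shc1 and acts with centralspindlin at the midbody during cell division, fell with age in both genotypes. Its CPM was 75.05, 59.8 and 64.6 in young WT, 66.8, 62.6 and 64.9 in young KO, 23.2, 19.8 and 19.9 in aged WT and 19.7, 20.6 and 16.0 in aged KO. The ages separated without overlap and the genotypes overlapped at each age. Shcbp1 fell 3.12-fold with age in WT (-1.64 ± 0.10, adjusted p = 1.23e-08) and 3.40-fold in KO (-1.77 ± 0.10, adjusted p = 6.32e-09). The genotype difference was -0.03 ± 0.10 at 2 months (adjusted p = 0.884, 95% interval -0.25 to 0.19) and -0.16 ± 0.10 at 12 months (adjusted p = 0.177, 95% interval -0.38 to 0.06). The 2-month sign was positive with TMM scaling over all 12 libraries (0.06).

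The 14 centralspindlin, midbody and proliferation genes listed with Shcbp1 fell with it. All 14 fell with age in WT and 13 fell in KO, with median log2 changes of -1.41 and -1.53, where 35.6% and 34.2% of all genes fell. Racgap1, the centralspindlin GTPase-activating protein, was at 93.9, 33.0, 93.8 and 33.2 CPM in young WT, aged WT, young KO and aged KO. Birc5 (survivin) was at 65.2, 22.7, 60.7 and 18.8 CPM, and Top2a, the mitotic topoisomerase, at 563, 175, 526 and 202 CPM. The exception in KO was Cit, the citron kinase of the midbody, named after its values were seen, at 10.4, 3.95, 9.21 and 7.41 CPM with a KO age change of -0.31 (adjusted p = 0.0530). None of the 14 was called between genotypes at 2 months by limma, where 16.1% of all genes were. At 12 months Cit was higher in KO (0.82, adjusted p = 9.64e-05) and 6 of the 14 were lower, where 31.3% of all genes were higher and 38.9% lower. Among the 6 were the mitotic kinase Plk1 (-0.79, adjusted p = 0.000397) and the kinesin Kif20a (-0.40, adjusted p = 0.00135). Relative to Mki67, a general marker of cycling cells, Shcbp1 had a log2 ratio of -2.59 ± 0.01 in young WT, -2.71 ± 0.15 in aged WT, -2.55 ± 0.12 in young KO and -3.16 ± 0.11 in aged KO (SD, n = 3). The aged KO ratios lay below those of the other groups, by a log2 difference of -0.61 against young KO and of -0.45 against aged WT. Mki67 itself was at 401, 137, 380 and 169 CPM in young WT, aged WT, young KO and aged KO (131 to 191 in aged KO). Shcbp1 was set against Mki67 alone, so the ratio does not tell a lower Shcbp1 from a higher Mki67. For both log2 differences the ratio test is as follows. For each the exact two-sided permutation p was 0.1, the smallest that 3 against 3 libraries allow, and 0.133 adjusted over the 16 ratio comparisons.

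**Figure D4:**
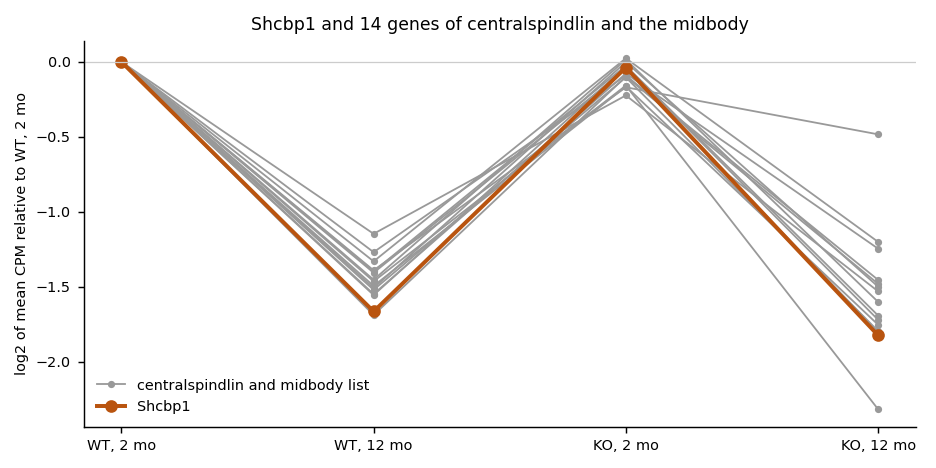
Lines join, for ease of following a gene, the log2 of the group mean CPM relative to the young WT mean (y axis) in the 4 groups (x axis) for Shcbp1 (orange) and the 14 listed genes (grey). Shcbp1 lies inside or at the edge of the grey lines, the grey line that stays highest in aged KO is Cit (7.41 CPM) and the lowest is Plk1 (3.41 CPM).

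Grb2, the SH2-SH3 adaptor that links Shc to Sos, was the only one of the 10 members that limma called in none of the 5 comparisons. Its CPM was 31.7, 29.8 and 31.3 in young WT, 28.5, 29.0 and 28.8 in aged WT, 25.1, 29.1 and 26.9 in young KO and 27.4, 29.2 and 28.6 in aged KO. The age effect was -0.10 ± 0.06 in WT (adjusted p = 0.181, 95% interval -0.24 to 0.03) and 0.07 ± 0.06 in KO (adjusted p = 0.329, 95% interval -0.06 to 0.21). The genotype effect was -0.19 ± 0.06 at 2 months (adjusted p = 0.0533, 95% interval -0.33 to -0.06), although the 3 KO libraries lay below the 3 WT libraries, and -0.02 ± 0.06 at 12 months (adjusted p = 0.790). With TMM over all 12 libraries the young WT and young KO libraries overlapped. Without young KO replicate 2 the 2-month difference (-0.25, adjusted p = 0.0275, range 0.0275 to 0.479) and the interaction (0.23, adjusted p = 0.0441, range 0.0441 to 0.456) passed. The log2 ratio of Shc1 to Grb2 in CPM was 3.25 ± 0.16 in young WT, 2.87 ± 0.07 in aged WT, 2.95 ± 0.10 in young KO and 2.58 ± 0.09 in aged KO (SD, n = 3). It separated without overlap in all 4 comparisons, each at the smallest exact permutation p of 0.1 (0.133 adjusted).

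Sos1 and Sos2, the exchange factors for Ras, took different courses. Sos1 was at 36.7, 29.7 and 32.8 CPM in young WT, 31.8, 35.1 and 27.8 in aged WT, 36.0, 33.6 and 31.8 in young KO and 56.7, 55.1 and 46.2 in aged KO. The aged KO libraries stood above all 9 others, which overlapped among themselves. Sos1 rose 1.55-fold with age in KO (0.63 ± 0.10, adjusted p = 0.000125), the WT change was -0.07 ± 0.10 (adjusted p = 0.609, 95% interval -0.29 to 0.16), and the age effects differed by 0.70 ± 0.15 (adjusted p = 0.00118). In aged libraries Sos1 was 1.66-fold higher in KO (0.73 ± 0.10, adjusted p = 3.07e-05), and in young ones the difference was 0.03 ± 0.10 (adjusted p = 0.878). The sign of the WT age value and of the 2-month genotype value turned under some alternatives, and neither was ever called. The overlapping gene Arhgef33, on the opposite strand, was at 0.0757 to 0.186 CPM as a group mean.

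Sos2 rose with age in both genotypes. It was at 29.5, 26.7 and 27.1 CPM in young WT, 39.2, 41.8 and 35.8 in aged WT, 26.3, 27.2 and 26.5 in young KO and 35.3, 31.5 and 30.9 in aged KO. In both genotypes the aged libraries lay above the young libraries, and at 12 months the KO libraries lay below the WT libraries. With TMM over all 12 libraries the genotypes overlapped at 12 months. The age rise was 0.48 ± 0.07 in WT (adjusted p = 7.77e-05) and 0.28 ± 0.07 in KO (adjusted p = 0.00409), and the 12-month genotype difference was -0.25 ± 0.07 (adjusted p = 0.00723). The age effects differed by -0.20 ± 0.10 (adjusted p = 0.115), and this difference passed under 4 alternatives, TMM scaling over all 12 libraries (-0.26, adjusted p = 0.0454) and the edgeR test on recovered reads (-0.29, adjusted p = 0.0366) among them, and without aged WT replicate 3 (-0.26, adjusted p = 0.0467) or aged KO replicate 1 (-0.26, adjusted p = 0.0490), over a range from 0.0366 to 0.258. The log2 ratio of Sos1 to Sos2 in CPM was 0.25 ± 0.08 in young WT, -0.31 ± 0.06 in aged WT, 0.34 ± 0.10 in young KO and 0.69 ± 0.11 in aged KO (SD, n = 3). It went down with age in WT by a difference of -0.55 and up in KO by 0.35, each without overlap (exact permutation p = 0.1, 0.133 adjusted). At 12 months the genotypes differed by 0.995 on this log2 scale, the largest Sos difference of the 4 comparisons.

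Gab1 and Gab2, the docking proteins, both responded to age, and Gab2 had the largest difference between genotypes of all members. Gab2 was at 84.3, 78.7 and 76.3 CPM in young WT, 59.8, 59.3 and 60.5 in aged WT, 73.0, 75.5 and 68.1 in young KO and 122, 121 and 116 in aged KO. The aged WT libraries were the lowest 3 of the 12 and the aged KO libraries the highest 3. In WT Gab2 fell 1.33-fold with age (-0.41 ± 0.05, adjusted p = 2.14e-05), whereas in KO it rose 1.65-fold (0.73 ± 0.05, adjusted p = 7.74e-08). The age effects differed by 1.14 ± 0.08 (adjusted p = 4.56e-08). In aged libraries Gab2 was 1.99-fold higher in KO (0.99 ± 0.05, adjusted p = 2.69e-09), and in young ones the difference was -0.14 ± 0.05 (adjusted p = 0.0949). The summed CPM of 5 endothelial markers was likewise highest in aged KO (229.5 to 246, against 62.6 to 108 over the other groups). It was lowest in young KO (62.6 to 65.1), whereas Gab2 was lowest in aged WT. The mast cell (209 to 229), adipocyte (303 to 312) and melanocyte (191 to 207) sums were also highest in aged KO. The luminal, basal, fibroblast, leukocyte, neuron and Schwann sums were not, and the skeletal muscle sum overlapped between aged KO and young WT. The part of these cell types in the Gab2 and Sos1 values was not tested.

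Gab1 rose with age in both genotypes. It was at 10.9, 8.62 and 8.94 CPM in young WT, 17.1, 19.1 and 19.0 in aged WT, 7.08, 8.53 and 7.41 in young KO and 17.3, 19.0 and 15.2 in aged KO, with every aged library above every young library. The rise was 1.90-fold in WT (0.92 ± 0.11, adjusted p = 7.44e-06) and 2.16-fold in KO (1.11 ± 0.11, adjusted p = 1.15e-06), and the effects differed by 0.19 ± 0.15 (adjusted p = 0.321). The genotype difference of Gab1 was -0.29 ± 0.11 in young libraries (adjusted p = 0.0981) and -0.10 ± 0.11 in aged ones (adjusted p = 0.419). The log2 ratio of Gab1 to Gab2 in CPM was -3.08 ± 0.12 in young WT, -1.70 ± 0.09 in aged WT, -3.24 ± 0.11 in young KO and -2.81 ± 0.13 in aged KO (SD, n = 3). It rose without overlap by 1.37 with age in WT and by 0.43 in KO, and at 12 months it differed by -1.10 between genotypes (each exact permutation p = 0.1, 0.133 adjusted). Of the 16 ratio comparisons, 12 separated without overlap.

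**Figure D5:**
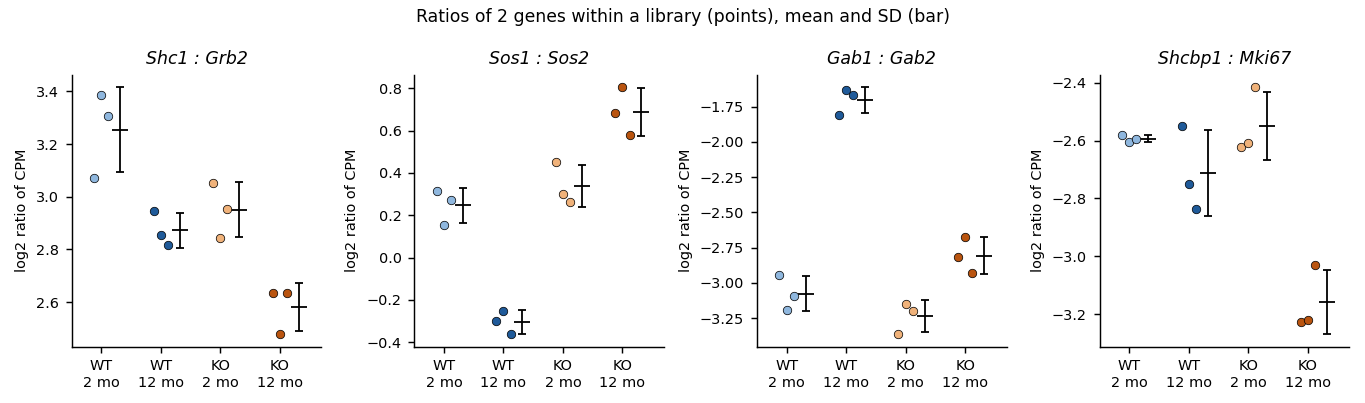
Each panel plots the log2 ratio of the CPM of 2 genes within a library (y axis; the axes do not start at 0) for the 12 libraries (points) by group (x axis), with the group mean and SD beside them (n = 3). The Sos1 : Sos2 ratio is lowest in aged WT (-0.31) and highest in aged KO (0.69), and Gab1 : Gab2 is highest in aged WT (-1.70).

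Transcript length moved with the age response of all genes in KO. The 94.3% of tested genes matched to a transcript length were split into 4 classes of equal size, a split chosen after the data were seen. The median KO age change was -0.21 in the class of shortest transcripts, -0.08 and 0.00 in the next 2 and 0.21 in the class of longest transcripts (4863 bases or more), where 51.5% of genes were called higher against 18.8% in the shortest. In WT the same medians were -0.09, -0.09, -0.09 and -0.07, with 17.9% of genes called higher in the shortest class and 26.9% in the longest. Between genotypes at 12 months they ran from -0.21 to 0.13 from the shortest to the longest class, with 20.7% and 45.7% of genes called higher. For the difference of the age effects they ran from -0.15 to 0.23, with 19.9% and 46.7% called positive. Sos1, Sos2, Gab1 and Gab2 were all in the class of longest transcripts, Shc2 and Shc4 in class 3, and Shc1, Shc3, Grb2 and Shcbp1 in class 2. With age in KO all of Sos1, Sos2, Gab1 and Gab2 were called higher, and in WT Sos2 and Gab1 rose, Gab2 fell and Sos1 was not called. The part of transcript length in the values of these genes was not tested.

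Per kilobase of exon, Shc1 was the most abundant member in each group, at 52.4 ± 4.48 CPM per kb in young WT, 37.3 ± 1.496 in aged WT, 36.9 ± 0.0583 in young KO and 30.1 ± 1.35 in aged KO (SD, n = 3). Shc3 was the least abundant, at 0.918, 0.288, 0.727 and 0.193 CPM per kb. In young WT, Shc1 was followed by Shc2 (20.2), Gab2 (12.9), Grb2 (10.6), Shcbp1 (10.6), Shc4 (3.66), Sos2 (3.26), Sos1 (3.12), Gab1 (1.87) and Shc3, in CPM per kb, and the libraries of Grb2 and Shcbp1 and of Sos2 and Sos1 overlapped. In aged WT the order was Shc1, Shc2 (12.0), Grb2 (9.86), Gab2 (9.70), Sos2 (4.57), Gab1 (3.62), Shcbp1 (3.33), Sos1 (2.98), Shc4 (2.56) and Shc3, and Grb2 overlapped with Gab2, Gab1 with Shcbp1, Shcbp1 with Sos1 and Sos1 with Shc4. In young KO it was Shc1, Shc2 (16.7), Gab2 (11.7), Shcbp1 (10.3), Grb2 (9.27), Shc4 (5.19), Sos1 (3.19), Sos2 (3.13), Gab1 (1.51) and Shc3, and Shcbp1 overlapped with Grb2 and Sos1 with Sos2. In aged KO Gab2 (19.4) came second, above Shc2 (15.4) and Grb2 (9.73), and the neighbours from Sos1 (4.97) through Shc4 (4.28), Sos2 (3.83) and Gab1 (3.38) to Shcbp1 (2.98) overlapped pairwise. The ranks between first and last shifted in part when the longest transcript was used as the length.

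The other lists of the pathway hold the genes the members work with, and their counts are to be read against all genes tested, of which 22.3% rose and 35.6% fell with age in WT, 32.9% rose and 34.2% fell with age in KO, and 31.3% were higher and 38.9% lower in KO at 12 months. Of 20 receptors that Shc adaptors serve, 18 were tested. With age 11 rose and 5 fell in WT (22.3% and 35.6% of all genes), and 15 rose and 1 fell in KO (32.9% and 34.2% of all genes). At 12 months 8 were higher and 10 lower in KO. Egfr, the epidermal growth factor receptor, was at 801, 525, 678 and 1347 CPM in young WT, aged WT, young KO and aged KO, and Pdgfra, a fibroblast receptor that is also in the fibroblast marker list, was at 604, 389.8, 525 and 951. Axl (569, 364, 516 and 1088 CPM) had the same order of groups, lowest in aged WT and highest in aged KO, as had Gab2. Igf1r, the IGF receptor, rose with age in both genotypes (51.9, 62.7, 40.3 and 161 CPM). Kit, the stem cell factor receptor and also a mast cell marker, was at 11.1, 83.6, 4.60 and 60.3 CPM, while the other mast cell markers took another course between young and aged WT. Cpa3 was at 47.7, 11.5, 10.97 and 76.5 CPM, Cma1 at 30.9, 12.3, 6.93 and 38.6, Tpsb2 at 35.8, 15.7, 8.73 and 31.9, and Mcpt4 at 4.65, 0.346, 0.333 and 9.95. The sum of all 5 with Kit was 120.2 to 137 in young WT, 117 to 127 in aged WT, 30.9 to 32.7 in young KO and 209 to 229 in aged KO. Erbb3, a luminal epithelial receptor, was at 9.13, 74.7, 6.19 and 12.2 CPM, and Fgfr2 at 2.47, 12.8, 2.09 and 4.76, both highest in the aged WT libraries, whose luminal marker sum was also highest. At 2 months 10 receptors were lower in KO and 0 were higher by limma, where 14.2% of all genes were lower and 1.86% higher. With TMM scaling over all 12 libraries 5 receptors were lower, where 1032 of all genes were lower and 426 higher.

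Of 25 other adaptors and docking genes, 24 were tested. With age 3 rose and 11 fell in WT, and 7 rose and 8 fell in KO, the latter near the 32.9% and 34.2% of all genes. Cblb, a ubiquitin ligase that ends receptor signalling, followed the order of Gab2 at 126, 65.0, 108 and 269 CPM. Grb10, an adaptor of the insulin and IGF receptors, was at 449.9, 255, 407 and 379 CPM. Grb7, an adaptor of ErbB receptors, was at 0.537, 8.61, 0.502 and 0.662 CPM, and Nck2, an SH2-SH3 adaptor like Grb2, at 25.7, 49.5, 25.03 and 12.2 CPM, both highest in aged WT. Dok1, a docking protein that dampens Ras signalling, fell with age in both genotypes (84.7, 60.2, 80.2 and 33.5 CPM). At 2 months 7 of the 24 were lower in KO and 0 were higher by limma (14.2% and 1.86% of all genes). With TMM scaling over all 12 libraries 0 were called in either direction.

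Of 7 Ras exchange factors other than Sos, 5 were tested. With age in KO 3 rose and 0 fell by limma, as Sos1 and Sos2 did: Rasgrf2 (2.07, 0.898, 1.05 and 2.68 CPM), Rasgrp3 (2.53, 3.11, 2.30 and 5.35 CPM) and Rapgef1, which acts on Rap1 (135, 157, 132 and 164 CPM). Of the 15 tested genes of Ras, Raf, MEK and ERK, 3 rose and 4 fell in WT and 5 rose and 3 fell in KO. Braf (57.5, 62.2, 57.4 and 101 CPM) and Map2k1, which encodes MEK1 (181, 152, 163 and 240.3 CPM), rose with age in KO and were higher in KO at 12 months, as was Sos1. Rras rose in both genotypes (15.7, 24.4, 13.3 and 26.0 CPM) and Lamtor3, a MEK1 scaffold, fell in both (83.4, 62.8, 86.5 and 72.7 CPM). Map2k2, which encodes MEK2, fell with age in KO (56.1, 60.8, 48.4 and 33.9 CPM), a call kept in 17 of 21 alternatives.

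Of 20 tested negative regulators of Ras and ERK, 6 rose and 11 fell in WT, and 8 rose and 8 fell in KO. Nf1, the Ras GTPase-activating protein neurofibromin, was at 105, 98.99, 100.4 and 241 CPM, and Sulf1 (147, 118, 128 and 267 CPM) and Errfi1, an inhibitor of Egfr (445, 397, 408 and 804 CPM), were likewise highest in aged KO. Spry4, a feedback inhibitor that ERK signalling induces, fell in both genotypes (55.7, 27.8, 51.5 and 25.9 CPM), as did Spry2 (53.1, 30.2, 44.9 and 38.4 CPM) and the MAP kinase phosphatase Dusp9 (31.5, 16.7, 37.5 and 10.3 CPM). The phosphatases Dusp4 (116, 129, 128 and 76.6 CPM) and Dusp7 (32.5, 55.8, 33.0 and 27.7 CPM) rose with age in WT and fell in KO. Of 11 tested kinases and mitochondrial partners of p66Shc, 2 rose and 4 fell in WT and 5 rose and 3 fell in KO. Prkcb, the protein kinase C that phosphorylates p66, was at 437, 182, 320.1 and 309 CPM. Foxo3, the transcription factor whose activity p66 restrains, was at 24.8, 37.5, 19.8 and 19.6 CPM, and Hspa9, the mitochondrial chaperone mortalin, at 647, 607, 602 and 797 CPM. Of 21 alternatives, the call was kept in 12 for Spry2 in KO, in 16 for Dusp4 in WT and in 16 for Dusp7 in KO.

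The genes whose log2 values ran most like each member over the 12 libraries are given as a description, with Pearson's r and no test, since the libraries share the structure of the 4 groups. For Shcbp1 they were the mitotic genes Spc25 (0.997), Cenpe (0.996) and Cep55 (0.996), the last of them one of the midbody genes above. For Shc3 they were Tk1 (0.988) and Rpa2 (0.988), which act in DNA synthesis, and Camkk1 (0.987). For Gab2 they were Ccnd2 (0.996), which encodes cyclin D2, Pcdhga8 (0.994) and Slc39a6 (0.992). For Sos1 they were Map3k2 (0.990), Ccdc50 (0.988) and Ammecr1 (0.988), for Sos2 Mpp5 (0.982), Nab1 (0.978) and Chpt1 (0.978), and for Gab1 Zfp462 (0.991), Phf8 (0.989) and Atp2b4 (0.987). For Shc1 they were Nnt (0.977), Pfkm (0.966) and Nagk (0.961), for Shc2 Hhipl1 (0.972), Gsn (0.970) and Fcgrt (0.967), and for Shc4 Alx4 (0.962), Krt20 (0.959) and Zcchc10 (0.952). Grb2 had the lowest values, with Galnt13 (0.878), Itm2b (0.871) and Rrs1 (0.858).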

How the data were processed

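Bulk RNA-seq libraries of mouse mammospheres, 12 in 4 groups of 3, were analysed from 1 deposited table. The deposited values are a normalized signal, CPM scaled by TMM in edgeR, per the file headers, on mm10. Per the submitters' processing notes, TopHat2 2.1.0, Bowtie2 2.2.4, SAMtools 0.1.18 and HTSeq 0.6.1p1 were used, with roles not stated. The library kit was stranded, per the labels' protocols. Of the counting, the annotation, the strand setting and the multi-mapping rule are not stated in the sources used here. Low values were whole multiples of 1 step per library, so reads were recovered: 100% of values above 0 lay within 0.1 of a whole read. Deposited starts lay 1 base below RefSeq in 56.4% of 21561 matched genes and at the same base in 3.31%, so 1 was added to each start printed.

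The main test was the trended limma (3.58.1, in R 4.3.3) on log2(CPM + 0.5), for genes whose mean over the 12 libraries reached 0.5 CPM, with 4 group means, 8 residual degrees of freedom and Benjamini-Hochberg adjustment over 13961 genes. edgeR 4.0.16 and DESeq2 1.42.0 on recovered reads were alternatives: edgeR called 7670, 9338, 1411, 9779 and 8122 genes and DESeq2 7752, 9341, 1725, 9764 and 8086 (for the age effect in WT and in KO, the genotype effect at 2 and at 12 months, and the interaction). Scripts were tested on simulated data. Other alternatives were pseudocounts of 1 and 0.1, no filter or a mean of 2 CPM, TMM over all 12 libraries, the compared groups alone, the replicate number as a block, and each library left out. Ratios of 2 genes used exact two-sided permutation tests. Members, gene lists and tests were chosen with earlier results of these data known. The members were named whatever their result. Of each pathway list, up to 3 called genes per direction and comparison were eligible by smallest p, and a selection of these is named, some results not being reported here. For each member the 3 genes with the highest Pearson r were named, predicted genes left out. Markers of 12 cell types were summed in CPM.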

Additional observations from a re-analysis of the deposited data

Results flagged for a closer look

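The age response differed between WT and KO for 3 members and for 31 of the named pathway genes, by the test of the difference itself (age effect in KO minus age effect in WT, limma, adjusted over all genes). The members were Gab2 (1.14), Sos1 (0.70) and Shc2 (0.61). These were 3 of the 10 members tested, where 57.7% of all genes were called in the same test. Among receptors the log2 difference was 1.72 for Axl, 1.72 for Igf1r, 1.60 for Egfr, 1.49 for Pdgfra, 0.72 for Kit, -1.14 for Fgfr2 and -2.05 for Erbb3. In adaptors it was 2.26 for Cblb, 0.72 for Grb10, -0.77 for Dok1, -1.94 for Nck2 and -2.92 for Grb7. For exchange factors and the kinase cascade it was 1.93 for Rasgrf2, 0.81 for Rasgrp3, 0.81 for Map2k1, 0.69 for Braf, 0.32 for Rras and -0.68 for Map2k2. Negative regulators gave 1.38 for Sulf1, 1.34 for Nf1, 1.14 for Errfi1, 0.58 for Spry2, -0.89 for Dusp4, -0.92 for Dusp9 and -1.03 for Dusp7. The p66Shc list gave 1.21 for Prkcb, 0.50 for Hspa9 and -0.61 for Foxo3, and the midbody list 0.99 for Cit, -0.35 for Kif20a and -0.65 for Plk1. The call was kept in 11 of 20 alternatives for Map2k2, in 13 for Kif20a, in 13 for Rras and in every alternative for the others. The pathway genes were eligible for naming by being called, so how many of them pass says nothing about their lists, and no count is read from it. No cause was tested.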

How the results depend on the processing

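Over 1040 alternatives of the 50 member results, 1008 kept their direction and their side of the threshold, 6 lost the call, 9 gained it and 17 changed sign, none of the latter a called result. Of 28 called member results, 25 passed under every alternative run. The 3 exceptions were Shc4 with age in KO and Shc2 and Shc3 between genotypes at 12 months, each lost when 1 library was left out, as given with those genes. Of 140 called results of named pathway genes, 122 passed under every alternative. The sign changed for Sos1 with age in WT (0.0317 with edgeR, 0.00850 with DESeq2, -0.144 to 0.0211 when each library was left out, positive without young WT replicate 1 or aged WT replicate 3) and at 2 months (-0.0391 to 0.111, negative without young WT replicate 2 or young KO replicate 1). At 2 months it also changed for Sos2 (0.0326 with TMM over all 12 libraries, 0.0469 with edgeR, 0.0341 with DESeq2) and Shcbp1 (0.0559, 0.0643 and 0.0506 in that order, and -0.104 to 0.0580 when each library was left out, positive without young WT replicate 1). At 12 months it changed for Grb2 (0.0019 with TMM over all 12, 0.0315 with DESeq2, -0.0389 to 0.00617 when each library was left out, positive without aged KO replicate 1). The interaction of Shc3 ran from -0.200 to 0.0409, positive without aged KO replicate 1. Of 112 ratio alternatives 1 changed sign, Shcbp1 to Mki67 at 2 months without young KO replicate 3, over a range of -0.0232 to 0.0815. The cause was not tested.

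The genes called between genotypes at 2 months were 2245, against 1458 with TMM over all 12 libraries, 1411 with edgeR, 1408 without young KO replicate 1 and 1493 without young KO replicate 3, and 1408 to 3028 when each library was left out in turn. With each library left out the other counts ran from 7223 to 8163 (age in WT), 8552 to 9748 (age in KO), 9056 to 10152 (genotype at 12 months) and 7357 to 8271 (interaction). The labels do not say whether the replicate numbers pair the libraries, and this was not tested. Of 18 same-number correlations 8 were over 0.1 (range -0.163 to 0.589), and 8 of 12 libraries correlated best with their own number. With the replicate number as a block the genes called were 8453 for age in WT, 9681 for age in KO, 2590 for genotype at 2 months, 10079 for genotype at 12 months and 8517 for age by genotype interaction, and the interaction of Shc4 (0.22) passed (adjusted p = 0.0451, range over alternatives 0.0451 to 0.459). Sign-flip permutation of ratios by replicate number cannot go below an exact p of 0.25. Depth limited Shc3 most, at 24 to 223 reads per library, and 3 libraries per group limit the ratio tests to an exact p of 0.1.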

Other observations

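Markers of other cell types varied between the groups and are given as values in the order young WT, aged WT, young KO and aged KO. The summed CPM of 7 skeletal muscle genes was 859 to 1000.4, 175 to 195, 249 to 303 and 801 to 1504, most of it Ttn, the giant sarcomere protein gene, at 711, 145, 208 and 1046 as group means. The other muscle genes were highest in young WT, with Acta1 at 93.4, 16.2, 24.3 and 36.8, Myh3 at 61.9, 5.69, 8.84 and 30.8, Myog at 20.4, 4.53, 4.99 and 7.64 and Ckm at 16.0, 2.21, 5.44 and 2.204. The sum of 5 endothelial genes was 94.5 to 104, 98.4 to 108, 62.6 to 65.1 and 229.5 to 246, and that of 4 adipocyte genes 169 to 182, 128 to 153, 161 to 172 and 303 to 312. The adipocyte sum was nearly all Fabp4 (173, 138, 166 and 306), which endothelium also expresses, while Adipoq was at 0.995, 0.368, 0.545 and 0.182 and Plin1 at 0.147, 0.00967, 0.0810 and 0.0373. The sum of 6 leukocyte genes was 149 to 183, 124 to 133, 149 to 179 and 66.9 to 102, with the T cell gene Cd3e at 0 in the first 3 groups. The sum of 5 Schwann or neural crest genes was 7.19 to 10.3, 53.5 to 57.4, 8.85 to 9.24 and 7.72 to 9.62, most of it Sox10 in aged WT (50.2), a gene that mammary epithelium also expresses. The erythroid genes Hba-a1 and Hba-a2 were at 0 in every library. The part of these cell types in the values of the Shc, Sos and Gab genes was not tested.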
